A study of Mus musculus with 2 samples.

Results

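The genes described here are S100a4, S100a6, S100a10 and S100a11, which encode small proteins of the S100 family, and Lgals1, Lgals3, Anxa2 and Vim. Lgals1 and Lgals3 encode galectin 1 and galectin 3, Anxa2 encodes annexin A2, and Vim encodes vimentin. The members are 8 of the 31253 genes in the deposited matrices, and each symbol was found once in both libraries. The members were chosen by their UMI levels and their ratios between the genotypes in these same libraries, as genes of effector lymphocytes. Their levels, and their differences between the genotypes, are therefore given as a description. The Vsig4 KO library held live (DAPI-) CD45+ single cells sorted by flow cytometry from livers of Vsig4-/- mice, and the WT library held cells sorted in the same way from livers of WT mice. Livers of both genotypes bore metastases of the mouse melanoma line B16F10 and were digested with collagenase and DNase before red cells were lysed. VSIG4 is a complement receptor of resident macrophages, which is known in the liver from Kupffer cells, and by its title the study asked how those cells act on T cells through VSIG4 and CD5. The number of mice behind each library, their age and the time after tumour cell transfer are not given in the sources used here. There was 1 library per genotype, so no test was possible, and all intervals below are 95% intervals of counting error that say nothing of differences between mice, sorts or libraries.

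Most S100 proteins, though not S100A10, bind calcium through EF-hand motifs. S100 proteins form dimers and attach to partner proteins. S100A4 binds non-muscle myosin and is known for its part in cell motility, S100A6 is known as calcyclin, S100A10 joins annexin A2 in a complex at the inner face of the membrane, and S100A11 binds other annexins. Galectins bind glycans on surface receptors such as CD45 and CD43, and vimentin forms the intermediate filaments of leukocytes. In T cells these genes are low in naive cells and are switched on as cells become effector or memory cells, and monocytes and macrophages carry several of them at high levels.

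The 4 S100 genes lie on chromosome 3 and are all on the plus strand (GRCm38 positions from GENCODE). S100a4 (ENSMUSG00000001020) is at chr3:90603771-90606045 and S100a6 (ENSMUSG00000001025) at chr3:90612882-90624181, so that 6837 bases separate the end of S100a4 from the start of S100a6. S100a11 (ENSMUSG00000027907) is at chr3:93520488-93526287 and S100a10 (ENSMUSG00000041959) at chr3:93555080-93564643, and the starts of S100a4 and S100a11 are 2916717 bases apart. The other genes lie on separate chromosomes: Lgals1 (ENSMUSG00000068220) at chr15:78926725-78930465, Lgals3 (ENSMUSG00000050335) at chr14:47367751-47386160, Anxa2 (ENSMUSG00000032231) at chr9:69453620-69491795 and Vim (ENSMUSG00000026728) at chr2:13573927-13582826. The promoters of S100a4 and S100a6 are shown because these neighbours were both more than 1.5-fold below WT in Vsig4 KO NKT cells and in CD8 cells with naive and effector genes, and that of S100a11 because it lies on the same chromosome and was above WT in Vsig4 KO monocytes. Each run holds the 250 bases before the gene's start in the RefSeq annotation of GRCm38.p6, on the plus strand, and capitals mark matches to the motifs named below.
S100a4, chr3:90603520-90603769: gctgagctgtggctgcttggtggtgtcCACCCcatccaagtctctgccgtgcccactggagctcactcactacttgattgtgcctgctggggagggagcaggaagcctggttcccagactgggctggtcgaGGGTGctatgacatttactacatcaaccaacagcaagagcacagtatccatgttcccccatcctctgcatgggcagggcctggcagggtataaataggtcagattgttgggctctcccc
S100a6, chr3:90612644-90612893: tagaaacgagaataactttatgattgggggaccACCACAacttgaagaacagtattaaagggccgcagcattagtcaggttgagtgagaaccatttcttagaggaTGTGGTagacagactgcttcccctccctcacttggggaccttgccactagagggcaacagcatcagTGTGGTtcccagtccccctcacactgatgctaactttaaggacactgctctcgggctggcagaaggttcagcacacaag
S100a11, chr3:93520246-93520495: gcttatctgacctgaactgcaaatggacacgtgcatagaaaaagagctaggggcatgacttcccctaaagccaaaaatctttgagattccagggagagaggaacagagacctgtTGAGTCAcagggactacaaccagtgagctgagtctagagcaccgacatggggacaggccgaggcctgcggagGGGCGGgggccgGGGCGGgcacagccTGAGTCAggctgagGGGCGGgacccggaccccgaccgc
The search covered both strands for TGANTCA (AP-1), GGGCGG (a GC box), CACCC (KLF factors), TGTGGT (RUNX factors), TCACACC (T-box factors) and the NF-kB motif. The S100a4 window held 2 matches to CACCC, 1 of them on the minus strand and so printed as GGGTG, a motif found in 52.0% of all 32851 promoter windows of the same length. The S100a6 window held 3 matches to TGTGGT, 1 of them printed as ACCACA, and 14.05% of all windows hold that motif. In the S100a11 window there were 2 matches to TGANTCA, found in 6.75% of all windows, and 3 to GGGCGG, found in 32.7%. No match overlapped another. None of the 3 windows held TCACACC (3.33% of all windows) or the NF-kB motif (1.41%), which says only that these letters are not in these windows. A match is a string of letters and not a binding site that was measured, and the motifs of S100a4 and S100a6, the neighbours, differed from each other.

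The Vsig4 KO library held 5799 barcodes with 25119175 UMIs (unique molecular identifiers, each standing for 1 captured transcript) and the WT library 6929 barcodes with 28537154 UMIs. Filters kept 5479 Vsig4 KO and 6491 WT cells, with medians of 3260 UMIs and 3034 UMIs. Vsig4 gave 3 UMIs in 3 Vsig4 KO cells and 43 UMIs in 19 WT cells, so that it was nearly absent from the library labelled Vsig4 KO. The libraries shared 54 barcodes, of which 48 were among kept cells in both. Leaving these cells out changed no count of members in the gates where it was tried. It was not tried for B cells, the wide naive-like gates or the splits described below. Non-classical monocytes fell to 49 Vsig4 KO cells, too few for a count. Cells were gated by raw UMIs of lineage genes, none of which is a member, and 3379 Vsig4 KO and 3704 WT cells fell into a gate. All gates carried Ptprc, which encodes CD45, at 450.5 to 2253 CPM in Vsig4 KO and 516.5 to 2108 CPM in WT among gates of at least 50 cells per library, where CPM (UMIs scaled to a common total) makes gates of different size comparable. Marker genes kept out of the gating were above the median gate in the gates they belong to, except Prdm1, an effector T cell factor, in WT CD8 effector cells (42.7 CPM). Few cells of the macrophage gate carried Kupffer cell genes, 9 of 91 in Vsig4 KO and 16 of 197 in WT, so this gate stands mostly for other macrophages.

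CD8 and CD4 T cells were called effector when they had at least 2 UMIs summed over Ccl5, Nkg7, Cxcr6 and Id2 and 0 of a set of naive T cell genes that includes Ccr7, and naive-like when they had a UMI of that naive set and 0 of the effector genes. This left 185 Vsig4 KO and 214 WT CD8 effector cells, 106 and 106 CD4 effector cells, and 99 and 72 naive-like CD4 cells. Only 32 Vsig4 KO and 34 WT CD8 cells were naive-like by that rule, fewer than the 50 per library needed for a ratio. For that reason 2 further gates were added once the data had been seen: CD8 cells with both kinds of gene (221 Vsig4 KO and 211 WT cells) and a wide naive-like CD8 gate that allows 1 effector UMI (63 and 73 cells). NKT cells numbered 290 in Vsig4 KO and 212 in WT, NK cells 335 and 465, classical monocytes 146 and 348, non-classical monocytes 50 and 162, and macrophages 91 and 197. B cells (1991 and 1837) served as the cells in which free RNA can be read, although they express some members themselves. Regulatory T cells (34 and 31) and ILC1 (20 and 26) are given as levels only.

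S100a4 differed widely between gates. In CPM it stood at 1608.5 in Vsig4 KO and 1770.2 in WT classical monocytes, at 836 and 889.9 in non-classical monocytes and at 601.5 and 614 in macrophages. Among lymphocytes the highest levels were those of regulatory T cells, at 934 CPM in Vsig4 KO and 974 CPM in WT, and of CD4 effector cells, at 822 and 989 CPM. CD8 effector cells stood at 370.3 CPM in Vsig4 KO and 588 CPM in WT and the few ILC1 at 443 and 439 CPM. The 19 Vsig4 KO and 17 WT CD4 cells with both naive and effector genes had 486 and 884 CPM. Below these were NKT cells at 104 and 244 CPM and NK cells at 48.8 and 67.6 CPM. Naive-like CD4 cells had 15 UMIs in Vsig4 KO and 23 UMIs in WT (37.9 and 95.6 CPM), B cells were at 10.97 and 11.92 CPM, and the wide naive-like CD8 gate had 12 UMIs in Vsig4 KO, all in 1 cell, and 0 in WT. CD4 effector cells, regulatory T cells and non-classical monocytes had overlapping intervals within each library, as did CD8 effector cells and macrophages in WT. Classical monocytes lay above all other gates and NKT cells below the effector gates, in both libraries and beyond their intervals. NK cells, which are cytotoxic like CD8 effector cells, thus had S100a4 at 0.132 of the CD8 effector level in Vsig4 KO and at 0.115 in WT.

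S100a6 had a similar order. It was at 3391.5 CPM in Vsig4 KO and 3647 CPM in WT classical monocytes, at 1585 and 1641 CPM in non-classical monocytes, and at 1379 and 1612.5 CPM in macrophages. CD8 effector cells stood at 1287 CPM in Vsig4 KO and 1615 CPM in WT, and CD4 effector cells at 1171 and 1517.5 CPM, with regulatory T cells at 1596 and 1861 CPM and ILC1 at 673 and 936.5 CPM. NK cells were above NKT cells in Vsig4 KO (618 against 388 CPM) and below them in WT (499.8 against 888 CPM), so that the order of these 2 gates differed between the libraries beyond their intervals. B cells had 109 and 126 CPM and naive-like CD4 cells 73.3 and 133 CPM.

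S100a10, S100a11 and Anxa2 are taken here as the annexin group. Of these, S100a10 and S100a11 differed less between the lymphocyte gates than S100a4 and S100a6 did. S100a10 was at 1436 CPM in Vsig4 KO and 1264 CPM in WT CD8 effector cells, at 1490.2 and 1608.0 CPM in CD4 effector cells, at 1240.5 and 1269 CPM in NK cells and at 836 and 975 CPM in NKT cells, and B cells still had 398 and 414 CPM. For this gene the myeloid gates were not the highest: classical monocytes had 1166 CPM in Vsig4 KO and 961 CPM in WT, and non-classical monocytes 413.5 and 263 CPM. S100a11 was at 1547 and 1114.5 CPM in classical monocytes, at 920.5 and 846 CPM in CD4 effector cells and at 658 and 686 CPM in CD8 effector cells. Anxa2 was highest in classical monocytes (1230 CPM in Vsig4 KO and 996 CPM in WT), followed among lymphocytes by NK cells (834 and 741 CPM), which had 2.84 times the CD8 effector level in Vsig4 KO and 2.29 times in WT. NKT cells were low in Anxa2, at 125 and 145.5 CPM, against 54.1 and 41.6 CPM in B cells.

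The galectins divided the gates in different ways. Lgals1 was at similar levels in CD8 effector cells (1675 CPM in Vsig4 KO and 1727 CPM in WT), NK cells (1620 and 1637 CPM) and CD4 effector cells (1437 and 1844 CPM), and lower in classical monocytes (738 and 638 CPM). Lgals3, a galectin of macrophages, was at 2712 CPM in Vsig4 KO and 2512 CPM in WT macrophages and at 1969 and 1929 CPM in classical monocytes. Effector T cells carried much less of it, 157 and 242 CPM in CD8 and 102 and 250.5 CPM in CD4 effector cells, and NK cells 47.9 and 49.9 CPM, near the 28.7 and 37.1 CPM of B cells. Vim was led by classical monocytes at 4131 CPM in Vsig4 KO and 3029.5 CPM in WT. NKT cells were low in Vim, at 127 CPM in Vsig4 KO and 180 CPM in WT, below naive-like CD4 cells (207 and 233 CPM) and B cells (459 and 386 CPM). The wide naive-like CD8 gate stood at 227 CPM in Vsig4 KO and at 119 CPM in WT, where it was below NKT cells.

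**Figure D1:**
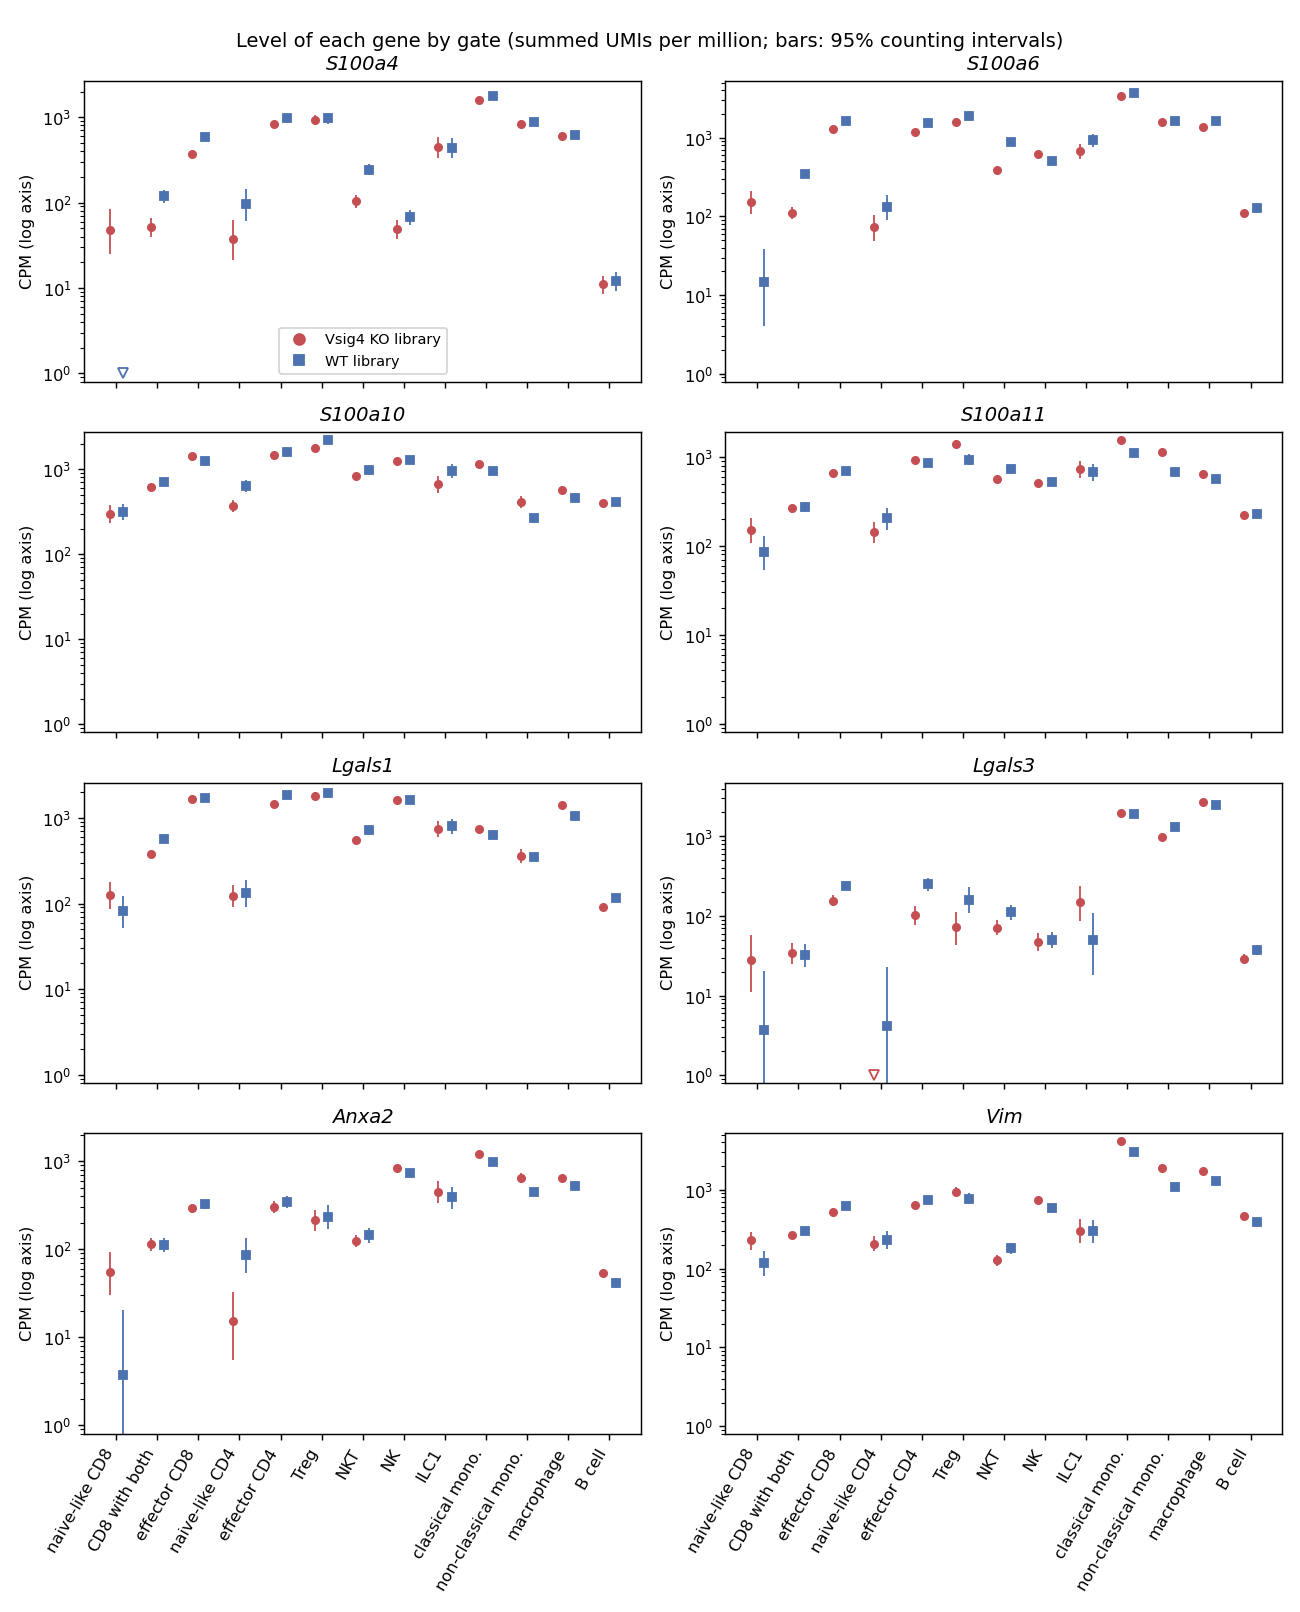
Level of each of the 8 genes in CPM (log axis) in each gate, Vsig4 KO left of WT, with bars for 95% counting intervals. Open downward triangles mark 0 UMIs (S100a4 in WT naive-like CD8 cells and Lgals3 in Vsig4 KO naive-like CD4 cells), and the naive-like CD8 gate is the wide one. S100a4, S100a6 and Lgals3 spread widely between gates, S100a10 spreads less, and Vim is low in NKT cells of both libraries and in WT naive-like CD8 cells.

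All 8 genes were higher in effector than in naive-like T cells in both libraries. Over naive-like CD4 cells, CD4 effector cells had S100a4 at 21.7-fold in Vsig4 KO and 10.4-fold in WT, S100a6 at 15.98-fold and 11.4-fold and Lgals1 at 11.6-fold and 13.9-fold. Smaller folds were seen for S100a10, at 4.04 in Vsig4 KO and 2.53 in WT, and for Vim, at 3.05 and 3.20. S100a11 was at 6.39-fold and 4.16-fold. Anxa2 stood at 20.2-fold (9.06 to 55.7) in Vsig4 KO, against 6 UMIs in naive-like CD4 cells, and at 3.93-fold (2.49 to 6.52) in WT. Lgals3 was at least 13.4-fold higher in Vsig4 KO, where naive-like CD4 cells had 0 UMIs and the bound uses a floor of 3 counts over the gate, and 60.3-fold higher in WT against 1 UMI. In CD8 effector cells over the wide naive-like CD8 gate the folds ran from 2.32 for Vim to 13.1 for Lgals1 in Vsig4 KO. In WT they ran from 4.05 for S100a10 to 109 for S100a6, with S100a4 at least 52.7-fold higher against 0 UMIs. The naive-like gates hold few cells and few UMIs, and a handful of cells carried most of them: 38 S100a6 UMIs came from 3 Vsig4 KO cells of the wide CD8 gate and 4 from 1 WT cell.

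The number of members with a UMI per cell showed the same division. It was taken after thinning each cell to 1000 UMIs, since deeper cells show more genes. CD8 effector cells showed a mean of 2.98 members in Vsig4 KO and 3.18 in WT (5.04 and 5.27 before thinning), and the wide naive-like CD8 gate 0.694 and 0.685. CD4 effector cells showed 3.26 and 3.59, NK cells 3.29 and 3.02 and classical monocytes 5.84 and 5.40. NKT cells stood between naive-like and effector T cells, with 1.78 members in Vsig4 KO and 2.23 in WT (3.48 and 3.92 before thinning). B cells had 0.799 and 0.810, close to the naive-like cells. At least 4 members were seen in 10.25% of Vsig4 KO and 19.8% of WT NKT cells, against 46.9% and 50.5% before thinning at median depths of 3956.5 and 3273 UMIs.

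**Figure D2:**
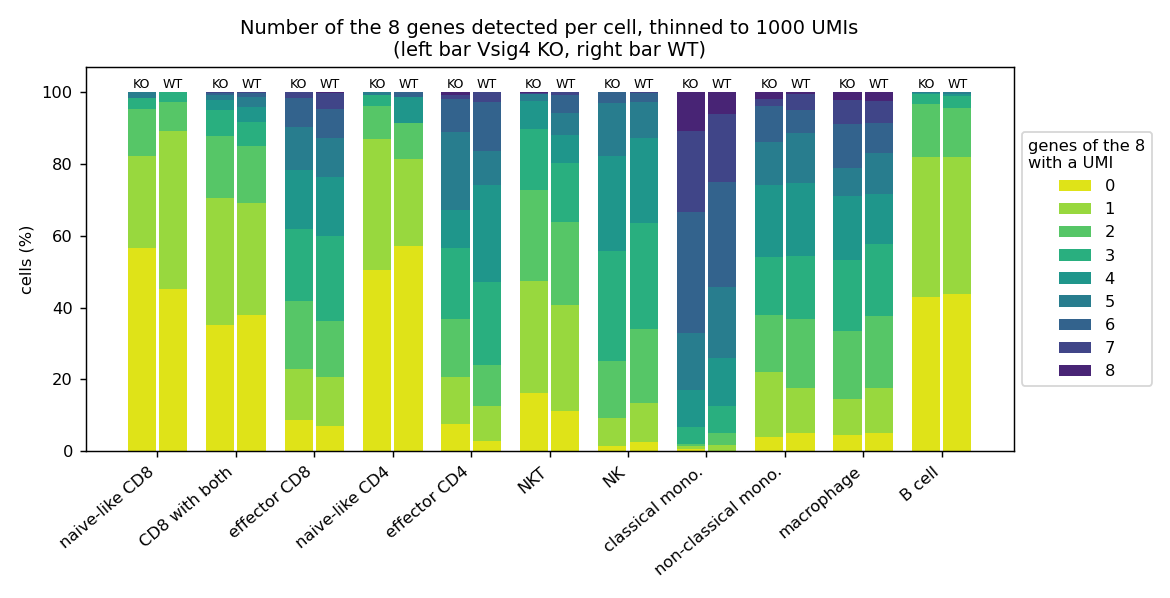
Share of cells of each gate (percent) by how many of the 8 genes had a UMI after thinning every cell to 1000 UMIs, Vsig4 KO bar left of the WT bar. Classical monocytes mostly show 4 or more of the 8 genes, effector T and NK cells about 3, and naive-like T and B cells 0 or 1.

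S100a4 and S100a6 UMIs were held by a minority of cells in several lymphocyte gates. The 10% of NKT cells richest in S100a4 held 88.0% of its UMIs in Vsig4 KO and 75.8% in WT, and in CD8 effector cells the same share of cells held 67.9% and 51.2%. In classical monocytes the figure was 23.3% in Vsig4 KO and 21.8% in WT. NK cells had 96.6% and 100% of S100a4 UMIs in 10% of the cells, but with 58 UMIs in 335 Vsig4 KO cells and 103 UMIs in 465 WT cells such a share is largely set by the low count.

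Across gates the members moved together to different degrees. Over 24 points, 12 gates in 2 libraries, the log2 levels of S100a6 and S100a11 had a Pearson r of 0.96 and those of S100a4 and S100a6 one of 0.91. The lowest pair was S100a10 and Lgals3 at 0.07. Within the 18 points of lymphocyte gates, a subset set after the data had been seen, that pair had an r of 0.63, and S100a10 and Anxa2, whose proteins form a complex, had one of 0.77, against 0.49 over all gates. In all, 6356 genes, the members included, were compared with the members' mean profile. Of the genes outside the members, Actb (r = 0.96), which encodes beta-actin, was most like it. Then came Arpc4 (0.94), a subunit of the actin-branching Arp2/3 complex, Actg1 (0.93), Cox6b1 (0.93), Atp5pb (0.93) and Lcp1 (0.92), an actin-bundling protein. Cdc42 (0.92), Capzb (0.92), Fam129a (0.91) and Ndufb9 (0.91) followed. In the lymphocyte gates 5794 genes were compared, again with the members included. The most alike others there were Actb (0.97), Wdr1 (0.96), Ndufb7, Arpc4, Clic1 and Pfn1 (0.95), and Tmem167, Lcp1, Cd48 and Psmb9 (0.94). The points share libraries, and several gates share a lineage, so these values describe the gates at hand.

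Between the genotypes the members did not move as 1 group. A ratio below is the CPM in Vsig4 KO over that in WT, and a gene counts as lower or higher when the ratio is at least 1.5-fold from 1 among genes with at least 50 UMIs over both libraries in the gate. Over the 9 gates with at least 50 cells per library that were compared, S100a4 had a ratio below 1 in all 8 gates where it passed 50 UMIs, from 0.428 to 0.980, and in 5 of them the interval lay below 1. S100a6 had a ratio below 1 in 8 of 9 gates, with NK cells as the exception. S100a10 and S100a11 had ratios below 1 in 5 and above 1 in 4 of the 9 gates, Lgals1 below 1 in 6, Lgals3 below 1 in 5 of 8, Anxa2 below 1 in 3 of 8 and Vim below 1 in 5 of 9. In these 9 gates the ratios above 1 lay mainly in monocytes and macrophages, and those below 1 in T and NKT cells. NK cells were mixed, with 5 of 8 members below 1, S100a6, Anxa2 and Vim above it, and a median log2 ratio of -0.02. The wide naive-like CD8 gate, which is not among the 9, went the other way. There Vim gave 57 UMIs in Vsig4 KO and 32 UMIs in WT (ratio 1.91, 1.22 to 3.04), S100a11 38 and 23 UMIs (1.77, 1.03 to 3.11) and Lgals1 32 and 22 UMIs (1.56, 0.878 to 2.81), while S100a10 had a ratio of 0.956 (0.691 to 1.32). So 3 of the 4 members tested in it were higher and 0 lower, where 7.77% of 1390 genes tested were higher and 9.06% lower.

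**Figure D3:**
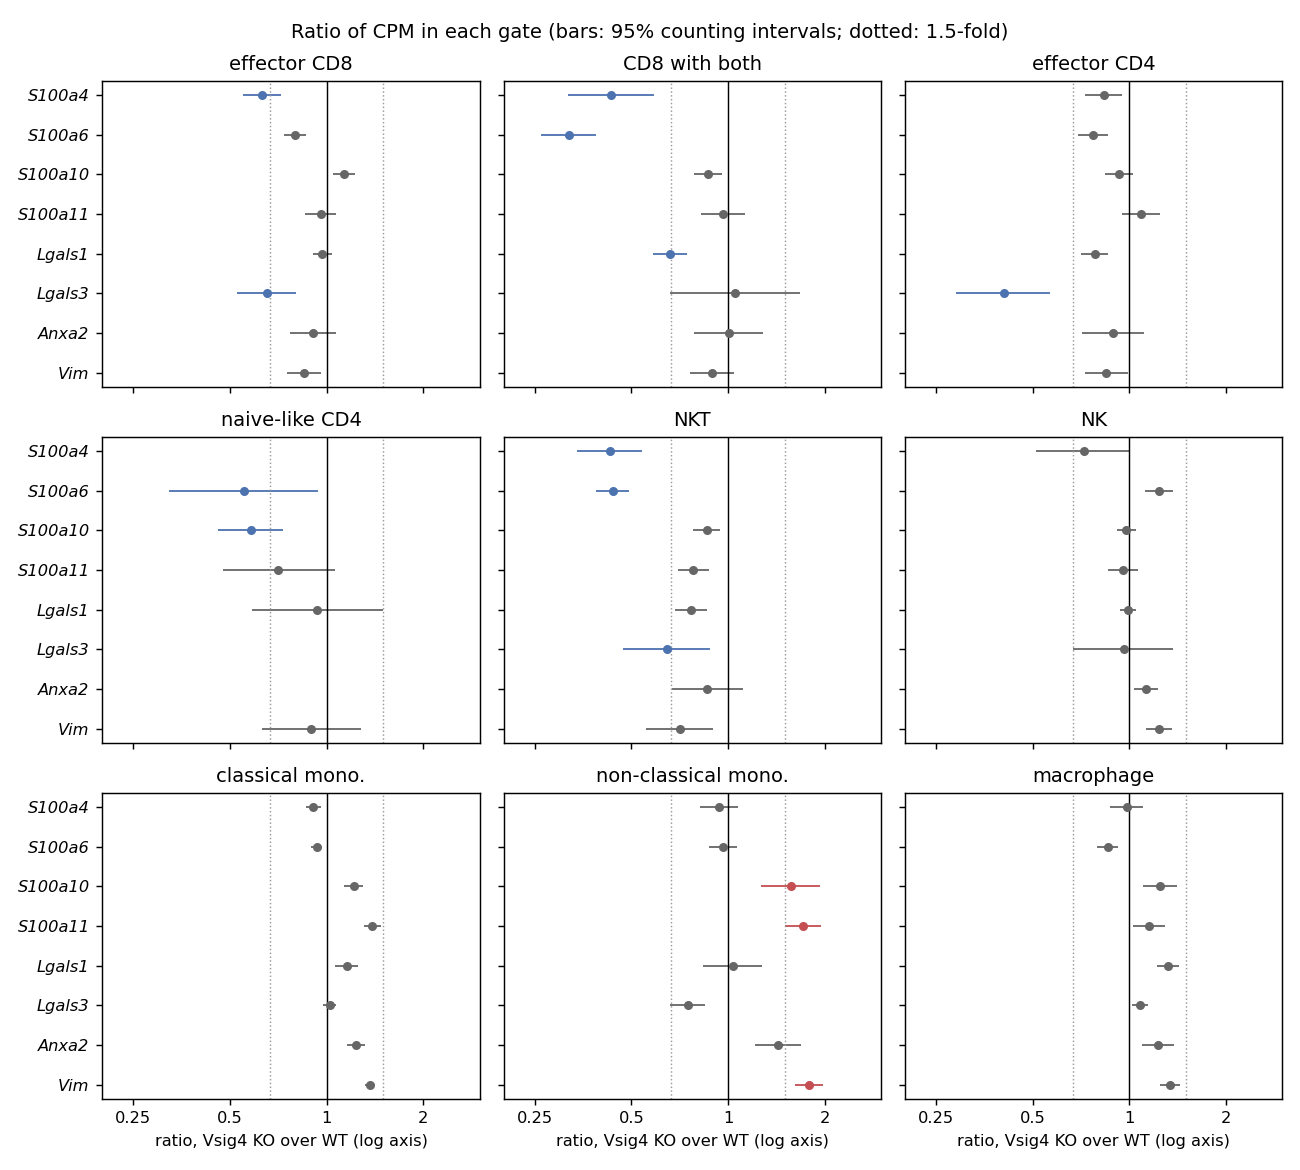
Ratio of CPM, Vsig4 KO over WT (log axis), of each gene in each gate, with 95% counting intervals. Blue points are at least 1.5-fold lower and red points at least 1.5-fold higher in Vsig4 KO. S100a4, S100a6 and Lgals3 hold most of the blue points, in T and NKT cells, and the red points are S100a10, S100a11 and Vim in non-classical monocytes.

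CD8 effector cells of the Vsig4 KO library had less S100a4 and less Lgals3 and about the same Lgals1. S100a4 gave 349 UMIs in Vsig4 KO and 565 UMIs in WT, or 370.3 CPM (332.5 to 411.3) and 588 CPM (541 to 639), for a ratio of 0.629 (0.549 to 0.720). Lgals3 stood at 157 CPM in Vsig4 KO and 242 CPM in WT, a ratio of 0.650 (0.525 to 0.802). S100a6 was lower by less than 1.5-fold (0.797, 0.739 to 0.860), as was Vim (0.851, 0.754 to 0.960), and the interval of S100a10 lay above 1 (1.135, 1.05 to 1.23). S100a11 (0.959), Lgals1 (0.970) and Anxa2 (0.907) had intervals that include 1. So 2 of 8 members were lower and 0 higher, where 4.16% of all 5101 genes tested in this gate were lower and 5.63% higher, and the members' median log2 ratio was -0.18 against 0.02 over all genes tested. Under stricter gates 1 of 8 members was lower.

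An S100a4 UMI was found in fewer CD8 effector cells of the Vsig4 KO library. In cells thinned to 1000 UMIs they were 19.6% (14.1 to 26.0) of 184 Vsig4 KO cells and 31.6% (25.4 to 38.3) of 212 WT cells, and 1 and 2 cells were too shallow to be thinned. The shares without thinning were 39.5% and 52.3%, at median depths of 4220 and 3600.5 UMIs. Among B cells they were 0.206% in Vsig4 KO and 0.500% in WT after thinning, where 53 and 38 cells were too shallow, and 0.804% and 1.42% before, at 2772 and 2402 UMIs. For Lgals3 the thinned shares of 12.5% in Vsig4 KO and 16.04% in WT had overlapping intervals, and B cells had 1.81% and 2.56%.

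Some other genes of this gate went in the opposite direction. Gzma, a granzyme, was at 2517 CPM in Vsig4 KO and 845 CPM in WT (ratio 2.98), and Gzmb (2.04), Gzmk (2.87) and Klrg1 (2.34), a receptor of terminal effector cells, were higher too. The effector genes used for gating summed to a median of 73 raw UMIs per Vsig4 KO cell and 44.5 per WT cell, at median depths of 4220 and 3600.5 UMIs. Among them Ccl5 had a ratio of 1.37, Nkg7 one of 1.08 and Cxcr6 one of 0.946. Tbx21 (1.01), Cxcr3 (1.11) and Cd44 (0.917) were within 1.5-fold too. Cells with a granzyme UMI were compared on their own, a split set after the data had been seen, with 144 Vsig4 KO and 112 WT cells. There S100a4 was at 387 CPM in Vsig4 KO and 694 CPM in WT (ratio 0.558), S100a6 at 1391 and 1922 CPM (0.724) and Lgals3 at 169 and 288 CPM (0.587), so the 3 genes were below WT among granzyme-positive cells as well. The 41 Vsig4 KO and 102 WT cells without a granzyme UMI, too few for a ratio, had S100a4 at 294 and 441 CPM, S100a6 at 826 and 1189 CPM and Lgals3 at 104 and 177 CPM. In the cells without a granzyme UMI the intervals of the libraries overlapped for S100a4 (219 to 387 and 378.5 to 511 CPM) and Lgals3 (61.6 to 164 and 138 to 223 CPM). Those of S100a6 lay apart (696 to 972.5 and 1084.5 to 1300 CPM). The part of the granzyme difference in the members' ratios was not tested.

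Of 14 cytoskeleton and adhesion genes of effector cells, 12 were tested, with 2 lower and 0 higher in Vsig4 KO CD8 effector cells. They were Itgb1, which encodes the integrin beta 1 chain, at 371 CPM in Vsig4 KO and 570 CPM in WT (ratio 0.652), and Capg, an actin-capping protein, at 57.3 and 118 CPM (0.487). Of 9 galectin ligands and glycan enzymes, 8 were tested and St6gal1, a sialyltransferase whose product masks galectin binding sites, was lower at 11 UMIs in Vsig4 KO and 56 UMIs in WT (0.2001). None of 4 tested annexin genes other than Anxa2, and none of the single genes tested among other S100 genes, other galectins and partners of annexin A2, passed 1.5-fold. Among 15 genes within 1 Mb of S100a4 with at least 50 UMIs in this gate, S100a4 and Crtc2 (ratio 0.585) were lower, and S100a13, the nearest other S100 gene tested, had 354 CPM in Vsig4 KO and 372 CPM in WT (0.953). Hspa1a, a heat-shock gene induced by stress and by tissue digestion, was at 511 CPM in Vsig4 KO and 923 CPM in WT (0.554), and its part in the result was not tested. RNA of monocytes and macrophages was scarce in the gate, with Lyz2, C1qa, C1qb, Csf1r and Cd68 at 26.5 CPM in sum in Vsig4 KO and 38.5 CPM in WT.

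CD8 cells that carried both naive and effector genes had larger differences than CD8 effector cells in S100a6, S100a4 and Lgals1. Those in Lgals3, Anxa2 and Vim were smaller, and the members' median log2 ratio was -0.18 in both gates. S100a6 gave 143 UMIs in Vsig4 KO and 385 UMIs in WT, or 112 CPM (94.1 to 131) and 349 CPM (315 to 386), for a ratio of 0.3195 (0.262 to 0.388). S100a4 gave 66 and 131 UMIs, or 51.5 and 119 CPM (0.433, 0.317 to 0.587), and Lgals1 stood at 375 CPM in Vsig4 KO and 567 CPM in WT (0.661, 0.585 to 0.745). S100a10 was lower by less than 1.5-fold (0.868, 0.785 to 0.960). The intervals of S100a11 (0.966), Lgals3 (1.05), Anxa2 (1.005) and Vim (0.892) included 1. Here 3 of 8 members were lower and 0 higher, where 3.56% of 5414 genes tested were lower and 5.54% higher. Crip1 (ratio 0.642), Itgb1 (0.629) and Capg (0.580) were the lower genes of the cytoskeleton and adhesion list, and Cd44, a receptor of memory cells, was at 74.1 CPM in Vsig4 KO and 111 CPM in WT (0.670). Hspa1a had a ratio of 0.423. Unlike in CD8 effector cells, Gzma (0.620) and Gzmb (0.612) were lower in this gate, and Gzmk stood at 1.025. Ccr7 (1.24), Il7r (1.18), Lef1 (1.16), Ccl5 (0.899) and Nkg7 (0.836) were within 1.5-fold. The part of these genes in the members' ratios was not tested. A few cells carried these UMIs: the 10% of cells richest in S100a6 held 90.9% of them in Vsig4 KO and 86.2% in WT, and after thinning 6.36% of Vsig4 KO and 11.85% of WT cells had an S100a6 UMI, with overlapping intervals. With no exclusion on B cell and myeloid genes the S100a6 ratio was 0.524 and that of Lgals1 0.831, so that Lgals1 was no longer 1.5-fold lower. Lgals1 also lost that mark with the mean of per-cell CPM (0.692) and without the deepest 5% of cells (0.681).

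To see where along the range of effector genes the differences lay, all conventional CD8 cells were binned by their summed UMIs of Ccl5, Nkg7, Cxcr6 and Id2, whatever their naive genes, a binning set after the data had been seen. The bins used raw UMIs, and Vsig4 KO cells had the higher median depth in every bin. At 10 to 19 effector UMIs the medians were 5477.5 UMIs in Vsig4 KO and 5126 UMIs in WT, and at 20 or more 4619 and 4008.5 UMIs. Cells of the same bin therefore need not be alike in their share of effector RNA. In WT, S100a4 and S100a6 were higher in each bin than in the one below it. In Vsig4 KO, S100a4 stayed between 21.7 and 89.9 CPM up to 19 effector UMIs and was higher only at 20 or more. At 10 to 19 effector UMIs, S100a4 gave 14 UMIs in 48 Vsig4 KO cells and 90 UMIs in 57 WT cells, or 45.0 CPM (24.6 to 75.5) and 304 CPM (244.5 to 373.7). S100a6 was at 296 CPM (238 to 363) in Vsig4 KO and 868 CPM (765 to 981) in WT in that bin, and Lgals1 at 614 CPM (530.1 to 708) and 926 CPM (819 to 1042). The intervals of all 3 genes lay apart, but no ratio is given for fewer than 50 cells. At 20 or more effector UMIs, where 196 Vsig4 KO and 220 WT cells lay, S100a4 was at 334.5 and 517 CPM (0.647) and S100a6 at 1061 and 1429.9 CPM (0.742). At 5 to 9 effector UMIs (70 and 46 cells) S100a4 stood at 45.0 CPM in Vsig4 KO and 104.5 CPM in WT and S100a6 at 146 and 304 CPM. At 0 and 1 effector UMI the order was the opposite for S100a6, at 132 and 166 CPM in Vsig4 KO against 7.33 and 35.3 CPM in WT, on 35 Vsig4 KO cells in each bin and 40 and 46 WT cells. At least 4 members were seen in 10.4% of Vsig4 KO and 29.8% of WT cells with 10 to 19 effector UMIs after thinning, and in 36.2% and 37.0% of those with 20 or more.

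**Figure D4:**
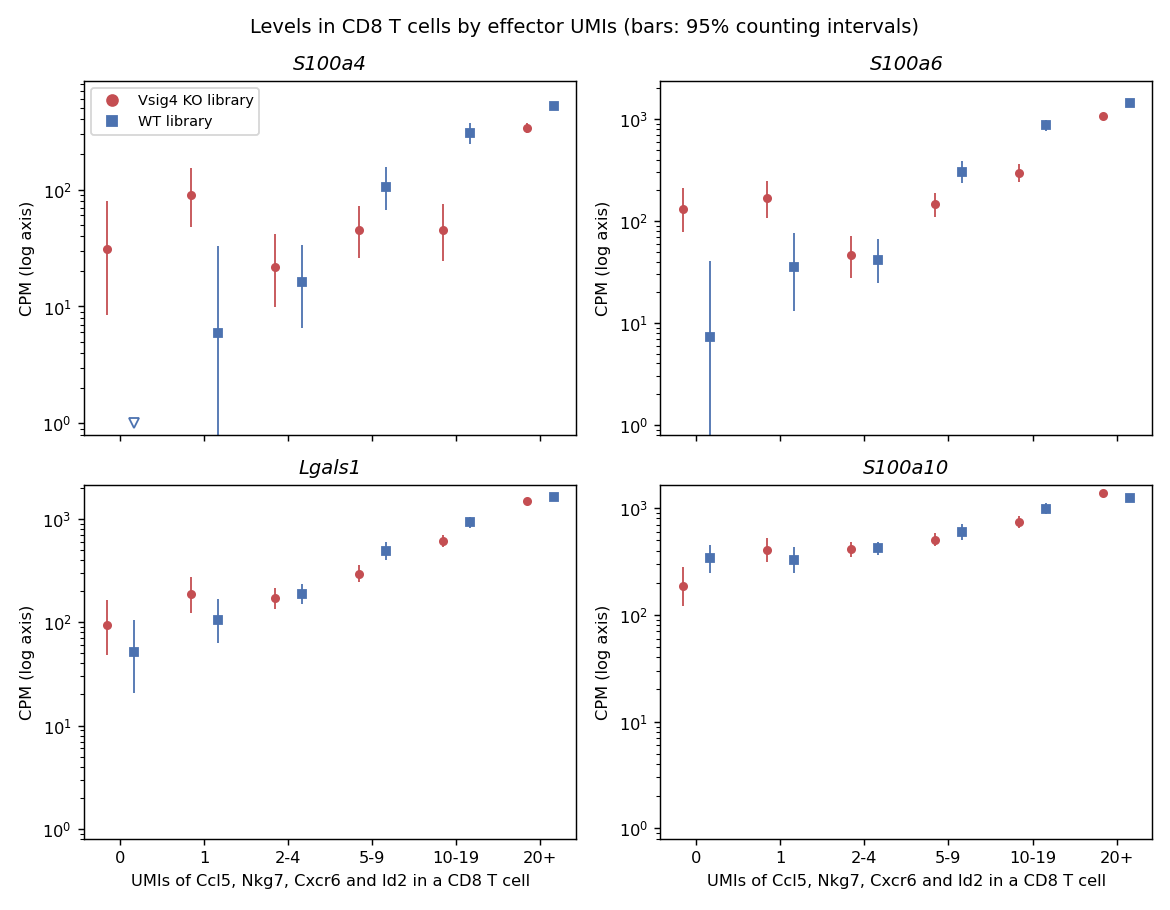
Level in CPM of the genes in CD8 T cells binned by summed UMIs of Ccl5, Nkg7, Cxcr6 and Id2, Vsig4 KO and WT, with 95% counting intervals. At 10 to 19 effector UMIs S100a4 and S100a6 are at 45.0 and 296 CPM in Vsig4 KO and at 304 and 868 CPM in WT, and the gap is smaller at 20 or more.

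CD4 effector cells of the Vsig4 KO library differed most in Lgals3. It gave 54 UMIs in Vsig4 KO and 119 UMIs in WT, or 102 CPM (76.5 to 133) and 250.5 CPM (207.5 to 299.7), which gave a ratio of 0.407 (0.289 to 0.566). In thinned cells, 5.66% (2.11 to 11.9) of 106 Vsig4 KO cells and 22.1% (14.6 to 31.3) of 104 WT cells had an Lgals3 UMI (0 and 2 cells were too shallow), and 24.5% and 43.4% without thinning at 4314 and 3557 UMIs. S100a4 (ratio 0.831, 0.728 to 0.949), S100a6 (0.772, 0.692 to 0.861), Lgals1 (0.780, 0.707 to 0.860) and Vim (0.848, 0.728 to 0.988) had intervals below 1 and were within 1.5-fold. S100a10 (0.927), S100a11 (1.09) and Anxa2 (0.891) had intervals that include 1. In this gate 1 of 8 members was lower and 0 higher, where 6.24% of 3336 genes tested were lower and 7.37% higher. With no exclusion on B cell and myeloid genes the Lgals3 ratio was 0.868, and with it 0 of 8 members were lower. The effector genes of the gate were less abundant in Vsig4 KO, with a median of 9.5 UMIs per cell against 14 in WT, and Ccl5 (0.620), Cxcr6 (0.571) and Hspa1a (0.307) were lower. Other genes of effector cells were higher, Gzmk at 2.37 and Gzma at 1.58, with Gzmb at 1.49 and Nkg7 at 0.957. Their part in the Lgals3 difference was not tested. No gene of the 12 tested from the cytoskeleton and adhesion list passed 1.5-fold.

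In naive-like CD4 cells 5 members passed 50 UMIs, all with a ratio below 1, and S100a4, Lgals3 and Anxa2 did not. S100a10 gave 146 UMIs in Vsig4 KO and 153 UMIs in WT, or 369 CPM (312 to 434) and 636 CPM (539 to 745), for a ratio of 0.581 (0.460 to 0.733). S100a6 gave 29 and 32 UMIs (0.551, 0.322 to 0.941), but its ratio was 1.07 when no cells were removed by doublet score, which added 2 Vsig4 KO cells and 0 WT cells. S100a11 (0.708), Lgals1 (0.932) and Vim (0.891) had intervals that include 1, and with those 2 cells Lgals1 stood at 1.45 and Vim at 1.02. Thus 2 of 5 members were lower and 0 higher, where 5.84% of 1918 genes tested were lower and 9.07% higher. Ahnak, a large partner of the annexin A2 and S100A10 complex, was lower too (0.621), as were Crip1 (0.495), Spn (0.608), which encodes the galectin ligand CD43, and St6gal1 (0.652). A wider gate that allows 1 effector UMI (119 Vsig4 KO and 87 WT cells), set after the data had been seen, had 6 of 7 members lower and 0 higher, where 7.83% of 2517 genes tested were lower and 6.63% higher. There S100a6 gave 65 UMIs in Vsig4 KO and 150 UMIs in WT (0.290), and Vim stood at 213 and 389 CPM (0.547). Of the 150 S100a6 UMIs of WT, 32 came from cells of the narrower gate.

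NKT cells of the Vsig4 KO library had all 8 members below WT, although Anxa2 stood above it, at a ratio of 1.17, when no cells were removed by doublet score. S100a4 gave 125 UMIs in Vsig4 KO and 186 UMIs in WT, or 104 CPM (86.9 to 124) and 244 CPM (210.1 to 281.5), for a ratio of 0.428 (0.338 to 0.540). S100a6 gave 465 and 677 UMIs, or 388 CPM (354 to 425) and 888 CPM (822 to 957), for a ratio of 0.437 (0.388 to 0.493). Lgals3 was at 71.8 and 111 CPM (0.644, 0.472 to 0.880), and its ratio was 0.870 under stricter gates, 0.801 with no exclusion on B cell and myeloid genes and 0.686 without doublet removal. Vim (0.706), Lgals1 (0.766), S100a11 (0.780) and S100a10 (0.858) were lower by less than 1.5-fold with intervals below 1, and the interval of Anxa2 (0.860) included 1. In sum 3 of 8 members were lower and 0 higher, where 6.44% of 5170 genes tested were lower and 5.84% higher, and the members' median log2 ratio was -0.42 against -0.03 over all genes tested. The count of lower members was 5 when cells were weighted equally and 6 without the deepest 5% of cells. The share of all genes past 1.5-fold was not computed under these settings, so these counts cannot be read as a stronger result. After thinning, 24.4% (19.5 to 29.8) of 283 Vsig4 KO and 40.6% (33.8 to 47.6) of 207 WT NKT cells had an S100a6 UMI (7 and 5 cells were too shallow), against 48.6% and 55.2% without thinning and 2.17% and 3.28% of thinned B cells. The S100a4 shares were 4.95% (2.73 to 8.16) and 11.6% (7.57 to 16.8).

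The make-up of the NKT gate differed between the libraries as well. Effector genes were lower in Vsig4 KO, with Gzma at 154 CPM against 745 CPM in WT (ratio 0.207), Ccl5 at 0.607 and Gzmb at 0.639, while Nkg7 (0.836) and Cxcr6 (0.955) were within 1.5-fold. Among genes of less differentiated T cells, Il7r (1.53) was higher, and Lef1 (1.43), Tcf7 (1.09) and Klf2 (0.904) were within 1.5-fold. Zbtb16, the NKT lineage factor, had a ratio of 0.812, and Actb one of 0.983. Neutrophil genes (S100a8, S100a9, Retnlg, Ly6g and Csf3r) summed to 94 UMIs in Vsig4 KO and 2 UMIs in WT, and Hspa1a had a ratio of 0.942. The part of these differences in the members' ratios was not tested. Of the cytoskeleton and adhesion list 13 genes were tested, with Crip1 (0.626) and Lmna (0.500) lower and Actn1 (3.18) higher.

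Splits of the NKT gate, set after the data had been seen, gave different values. Cells with 0 Cd4 UMIs (222 Vsig4 KO and 174 WT cells) had S100a6 at 391.5 CPM in Vsig4 KO and 1063 CPM in WT (ratio 0.368), S100a4 at 109 and 280.0 CPM (0.388), Lgals3 at 0.521, Vim at 0.557 and Lgals1 at 0.608. In them 5 of 8 members were lower and 0 higher, where 7.54% of 4281 genes tested were lower and 6.12% higher. The 68 Vsig4 KO and 38 WT cells with a Cd4 UMI, too few for a comparison, had S100a6 at 380 CPM in Vsig4 KO and 184 CPM in WT, on 126 and 28 UMIs, and S100a4 at 93.4 and 98.6 CPM. In these cells S100a10 (1054 and 697 CPM), Lgals1 (735 and 427 CPM) and Anxa2 (123.5 and 59.2 CPM) also stood above WT. So did Vim (141.5 and 26.3 CPM) and Lgals3 (72.3 and 6.58 CPM), on only 4 and 1 WT UMIs. S100a11 was at 620 and 644 CPM. Cells with a Zbtb16 UMI (237 and 163 cells) had S100a4 at a ratio of 0.462, S100a6 at 0.522 and Lgals3 at 0.888 (0.615 to 1.29). In them 2 of 8 members were lower and 0 higher, where 7.08% of 4493 genes tested were lower and 6.65% higher. The 53 Vsig4 KO and 49 WT cells without a Zbtb16 UMI were too few for a ratio. They had S100a6 at 343 and 1390.5 CPM, Lgals1 at 459 and 925 CPM, and S100a4 on 5 and 26 UMIs. Lgals3 gave 11 and 33 UMIs there, and the intervals of the other members overlapped.

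NK cells differed from the T cell gates. S100a6 was at 618 CPM (574 to 665) in Vsig4 KO and 499.8 CPM (465 to 537) in WT, a ratio of 1.24 (1.12 to 1.37), and Vim at 731 and 590.4 CPM (1.24, 1.13 to 1.36). Anxa2 had a ratio of 1.125 (1.03 to 1.23), while the intervals of S100a10 (0.978), S100a11 (0.959), Lgals1 (0.990) and Lgals3 (0.961) included 1 and S100a4 gave 58 UMIs in Vsig4 KO and 103 UMIs in WT (0.721, 0.514 to 1.004). No member was lower or higher by 1.5-fold, where 4.17% of 6327 genes tested were lower and 4.50% higher. With no exclusion on B cell and myeloid genes Lgals3 had a ratio of 1.52 and was the 1 higher member, but the share of all genes was not computed there. After thinning, 39.8% (34.4 to 45.3) of 327 Vsig4 KO and 27.9% (23.8 to 32.2) of 459 WT NK cells had an S100a6 UMI (8 and 6 cells were too shallow), against 59.7% and 46.0% without thinning at 3242 and 2922 UMIs. Of the other annexins Anxa1 (1.64) and Anxa5 (1.52) were higher among 5 tested. Klrg1 (1.675), Tbx21 (1.60), which encodes T-bet, and Gzmb (1.502), genes of mature NK cells, were higher. Cells with a UMI of Klrg1, Itgam or Zeb2 were taken as mature, a split set after the data had been seen, so Klrg1 itself helped to define them. They made up 222 of 335 Vsig4 KO and 303 of 465 WT NK cells. Mature cells carried more S100a6 than less mature cells (1.63-fold in Vsig4 KO and 1.496-fold in WT). S100a6 had a ratio of 1.25 (1.11 to 1.41) within mature cells and 1.15 (0.931 to 1.42) within less mature cells. Those of Vim were 1.14 (1.025 to 1.27) and 1.54 (1.27 to 1.88). The part of maturity in these ratios was not tested. Globin genes stood at 0 UMIs in Vsig4 KO and 3007 UMIs in WT NK cells, 1975 CPM of the WT sum, and their part in the ratios was not tested.

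Monocytes and macrophages of the Vsig4 KO library had more Vim, S100a11, S100a10 and Anxa2 and about the same or less S100a4 and S100a6. Non-classical monocytes, 50 Vsig4 KO and 162 WT cells, had Vim at 1911.5 CPM (1766 to 2066) in Vsig4 KO and 1068.5 CPM (1004 to 1136) in WT, a ratio of 1.79 (1.62 to 1.98). S100a11 was at 1147.5 and 672 CPM (1.71, 1.502 to 1.94), S100a10 at 413.5 and 263 CPM (1.57, 1.27 to 1.94) and Anxa2 at 650.1 and 453 CPM (1.43, 1.21 to 1.69), while Lgals3 stood at 983 and 1313 CPM (0.749, 0.661 to 0.846). The intervals of S100a4 (0.939), S100a6 (0.966) and Lgals1 (1.04) included 1. This made 3 of 8 members higher and 0 lower, where 9.34% of 3737 genes tested were higher and 10.7% lower. S100a10 was no longer 1.5-fold higher with the mean of per-cell CPM (1.22) or without doublet removal (1.49), and after thinning an S100a10 UMI was found in 20.0% of Vsig4 KO and 23.4% of WT cells. Ahnak (1.56) and Plaur (1.69), the receptor of urokinase, were both higher as the tested partners of the annexin A2 complex. S100a8 (2.84) and S100a9 (4.34), S100 genes of neutrophils and monocytes, were higher as well, and the neutrophil list summed to 1537 CPM in Vsig4 KO and 507 CPM in WT. Its part in the members' ratios was not tested.

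In classical monocytes the same 4 genes were above WT with smaller ratios. Vim was at 4131 CPM in Vsig4 KO and 3029.5 CPM in WT (1.36, 1.32 to 1.41), S100a11 at 1547 and 1114.5 CPM (1.39, 1.31 to 1.47), Anxa2 at 1230 and 996 CPM (1.23, 1.16 to 1.32) and S100a10 at 1166 and 961 CPM (1.21, 1.14 to 1.30). S100a4 (0.909, 0.861 to 0.958) and S100a6 (0.930, 0.896 to 0.965) had intervals below 1, Lgals1 (1.16, 1.065 to 1.26) had one above 1 and that of Lgals3 (1.02) included it. No member was past 1.5-fold, where 5.87% of 6523 genes tested were lower and 5.09% higher. Ahnak stood at 2275 CPM in Vsig4 KO and 1476 CPM in WT (1.54). After thinning, 91.8% of Vsig4 KO and 81.0% of WT classical monocytes had a Vim UMI.

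In macrophages Vim was at 1709 CPM in Vsig4 KO and 1279.9 CPM in WT (1.335, 1.24 to 1.44), Lgals1 at 1403 and 1063 CPM (1.32, 1.22 to 1.43) and Lgals3 at 2712 and 2512 CPM (1.08, 1.02 to 1.14), while S100a6 was at 1379 and 1612.5 CPM (0.855, 0.794 to 0.921). S100a10 (1.25), Anxa2 (1.23) and S100a11 (1.15) had intervals above 1, and that of S100a4 (0.980) included 1. No member was past 1.5-fold, where 6.25% of 4975 genes tested were lower and 5.59% higher. Anxa1 (1.96), Ahnak (1.58), Lmna (1.82), which encodes lamin A and C, and Itgb7 (1.58) were the higher genes of the lists.

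In B cells no member passed 1.5-fold, where 2.61% of 9458 genes tested were lower and 4.01% higher, with ratios from 0.774 for Lgals3 to 1.30 for Anxa2, and S100a4 had 71 UMIs in Vsig4 KO and 61 UMIs in WT. Summed over all kept cells, gated or not, S100a4 was at 320.1 CPM in Vsig4 KO and 533 CPM in WT and S100a6 at 826 and 1260 CPM, while Vim was at 988 and 1036 CPM. These sums mix the levels within cells with the smaller numbers of gated monocytes and macrophages in the Vsig4 KO library, and such numbers depend on the digestion and on the CD45+ sort.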

How the data were processed

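Gene expression was measured by droplet single-cell RNA sequencing (10x Genomics 5′ chemistry, per the labels' protocols), and per the submitters' processing notes Cell Ranger 7.1.0 and mm10 were used. The deposited matrices hold UMI counts per gene and barcode, which the authors left as whole numbers. Gene positions came from GENCODE M21, which matched 31184 of 31253 identifiers, and promoters from RefSeq, which matched 6 of the 8 members.

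Barcodes were kept with 500 or more UMIs, 200 or more genes and no more than 10% of UMIs from mitochondrial genes. Scrublet in scanpy 1.11.5 marked 1 Vsig4 KO and 0 WT doublets by its own threshold and so did not work, so barcodes with the top scores were taken out, 0.8% for each 1000 barcodes (267 Vsig4 KO and 381 WT barcodes). No clustering was used. T cells had at least 2 UMIs of Cd3d, Cd3e and Cd3g, 0 of Cd79a and Ms4a1 and at most 1 of Lyz2 and Csf1r. Conventional T cells had 0 UMIs of Zbtb16, Klrb1c and Foxp3, and NKT cells at least 1 of Zbtb16 or Klrb1c with 0 of Cd8a, Cd8b1, Trdc, Ncr1 and Foxp3. The naive set of the T cell gates holds Ccr7 and a further gene that is not reported here. NK cells had 0 CD3 UMIs and at least 2 of Ncr1, Klrb1c and Klre1. Classical monocytes had at least 2 Lyz2 and 2 Ly6c2 UMIs, non-classical monocytes had Ace, Treml4 or Eno3 and at most 1 Ly6c2 UMI, macrophages at least 5 UMIs of C1qa, C1qb and C1qc with Csf1r, and B cells at least 2 of Cd79a and Ms4a1. Cells near the effector threshold, with 2 or 3 effector UMIs, made up 2.70% of Vsig4 KO and 4.21% of WT CD8 effector cells and 19.8% and 17.9% of CD4 effector cells.

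UMIs were summed per gate and library and scaled to CPM, in which a gene's level also depends on all other genes of the gate. Intervals at 95% are exact Poisson for CPM, exact conditional binomial for ratios and Clopper-Pearson for shares (scipy 1.17.1). Cells are not replicates, so no p-value is given. Median log2 ratios used a pseudocount of 10 CPM. The members and lists were chosen with earlier results of these data known. All 8 members are named in each main gate, with some of the list genes past 1.5-fold, the 10 genes most like the members among those with at least 50 CPM in 1 gate, and neighbours of S100a4. Granzymes, Klrg1, Hspa1a and other genes given beside the members were chosen after their values were seen. The steps were tested on simulated data.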

Additional observations from a re-analysis of the deposited data

Results flagged for a closer look

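For 6 members the ratio, Vsig4 KO over WT, lay below 1 in 1 gate and above 1 in another with both intervals clear of 1. These differences between gates were not tested, since each gate has 1 library per genotype. S100a6 had a ratio of 0.3195 in CD8 cells with both naive and effector genes and 1.24 in NK cells. S100a10 stood at 0.581 in naive-like CD4 cells and 1.57 in non-classical monocytes. S100a11 was at 0.780 in NKT cells and 1.71 in non-classical monocytes. For Lgals1 the values were 0.661 in CD8 cells with both kinds of gene and 1.32 in macrophages, and for Lgals3 0.407 in CD4 effector cells and 1.08 in macrophages. Vim was at 0.706 in NKT cells and 1.79 in non-classical monocytes. The gates named are those with the lowest and the highest ratio of each gene, so their distance is partly set by that choice.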

How the results depend on the processing

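Up to 10 alternatives were computed per gate, among them other filters, stricter gates, no exclusion on other lineages, no doublet removal, the mean of per-cell CPM and leaving out the deepest cells or, added after the data were seen, the shared barcodes. Of 653 alternative values of member ratios, 617 moved by less than their counting interval, 35 moved by more, and 1 belonged to a ratio past 1.5-fold that turned its direction. That one was S100a6 in naive-like CD4 cells, at 1.07 without doublet removal, which also left 1 lower member there instead of 2. In all, 27 alternative values lay on the other side of 1 than the ratio reported, the rest of them for ratios within 1.5-fold, among them Lgals1 in naive-like CD4 cells (1.45) and Anxa2 in NKT cells (1.17) without doublet removal. Of 14 ratios past 1.5-fold, 6 were within it under at least 1 alternative: Lgals3 in CD8 effector, CD4 effector and NKT cells, Lgals1 in CD8 cells with both kinds of gene, S100a6 in naive-like CD4 cells and S100a10 in non-classical monocytes. Stricter gates left 1 lower member in CD8 effector cells instead of 2. With no exclusion on other lineages 0 members were lower in CD4 effector cells instead of 1, and 1 was higher in NK cells instead of 0. In NKT cells 5 members were lower with the mean of per-cell CPM and 6 without the deepest 5% of cells, instead of 3. The share of all genes past 1.5-fold was not computed under any alternative, so these counts have no background to be read beside. The cause of these shifts was not tested. The S100a4 ratio ranged from 0.524 to 0.634 in CD8 effector cells and from 0.335 to 0.493 in NKT cells, and that of S100a6 in NKT cells from 0.373 to 0.469. Stricter gates left too few naive-like CD4 cells for a value, and non-classical monocytes, at 50 Vsig4 KO cells, fell under the minimum in 4 alternatives. No paired analysis was possible because each genotype has 1 library and no result comes from a test. Depth limits the naive-like gates and S100a4 in NK cells most, where a few cells carry the UMIs, and all intervals cover counting error only.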
